A study of Mus musculus with 8 samples.

Results

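Accessible chromatin was described at 9 mouse genes of lysosomal protein breakdown: the cathepsin genes Ctsa, Ctsb, Ctsc, Ctsd, Ctsl, Ctss and Ctsz, and the genes of the protease inhibitors cystatin C (Cst3) and cystatin B (Cstb). The 9 genes are among 49943 RefSeq genes on chromosomes 1 to 19, X and Y of the GRCm38.p6 assembly (mm10 coordinates). Every peak whose region lay within 10 kb of one of the gene bodies was taken, which gave 22 regions of the 40784 obtained by merging overlapping peaks of all lists. The presence of these peaks and their rank by oxygen and culture were what the genes were chosen on, so those values are given as a description and no test was run on them.

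The assay was ATAC-seq, in which the Tn5 transposase cuts and tags open chromatin, on BV2 cells, an immortalised mouse microglial line. In monoculture the BV2 cells were on their own. In co-culture they had been placed for 24 h before the exposure on a layer of GL261, a glioma line from mouse. Both cultures were then kept for 16 h at 21% oxygen (normoxia) or below 0.1% oxygen (hypoxia), which gave 4 groups of 2 biological replicates and 8 libraries. All groups were fixed in 1% formaldehyde, the hypoxic cells while still in hypoxia, and 50000 sorted cells went into each transposition. Per the labels, the sort took cells positive for CD45, the leukocyte surface protein, or for GFP, and which gate served which library was not stated. BV2 and GL261 are each 1 established line, so the replicates carry no variation between animals.

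Cathepsins are proteases that work mainly in the acid interior of endosomes and lysosomes. Cystatins block the cysteine proteases among them: cystatin C is secreted and is abundant in microglia and astrocytes, and cystatin B stays in the cytosol. Microglia use these enzymes to digest engulfed material and to process antigens, and in gliomas secreted cathepsins are known to cut extracellular matrix. Many lysosomal genes carry the CLEAR element, an E-box sequence bound by the transcription factors TFEB, TFE3 and MITF.

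The lists held from 9910 to 29658 peaks. Only peaks past a −log10 q of about 2 were listed, and a called summit held a median of 18 to 30 fragments, depending on the library. The commonest background level of a list, a guide to depth, ran from 0.758 to 1.45 fragments per position and was lowest in monoculture normoxia. Summit fragments are whole counts not scaled for this depth. A region without a peak is one that did not pass the caller's threshold at that depth and is not shown to be closed. Of 15 microglia and macrophage marker genes, 9 and 10 had a peak within 10 kb in the monoculture normoxia libraries and 11 to 14 in the other 6, and C1qa had none in any library. Of 12 markers of glioma, glial and neural progenitor cells, 0 and 1 had a peak in monoculture normoxia, 2 in each monoculture hypoxia library, 3 and 5 in co-culture normoxia, and 6 and 7 in co-culture hypoxia. Their summed summit fragments, in multiples of the list's background, were 0 to 27.7, 58.7 to 69.4, 65.1 to 94.2 and 150 to 152 in the same order. Sox2, Nes, Gfap and Pdgfra had a peak in both co-culture hypoxia libraries and neither monoculture hypoxia library, while Olig2, Sox9, Aqp4 and Fabp7 had none in any library. The microglial list's sums were 198 to 285, 315 to 377, 331 to 400 and 539 to 546. Of 3 markers each, neurons had 1 with a peak in every library, endothelial cells 1 to 3, T cells 0 or 1, and fibroblasts 0 in monoculture normoxia, 1 in each monoculture hypoxia library and 1 or 2 in co-culture. The part of these marker levels in the differences between cultures was not tested.

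The RefSeq promoter table covers 7 of the 9 genes with 8 start sites (Ctsa has 2), all except Cstb and Ctsb. The sequences before 4 of these starts are shown because the accessibility data part them: Cst3 and Ctsc had a peak at the start in all 8 libraries, Ctsd in 5 and Ctss in 2. Each runs 5′ to 3′ toward the start, stops where the RefSeq gene body begins, and is from the GRCm38.p6 RefSeq table. Capitals mark GGGCGG, the Sp1 core, in Cst3 and Ctss, GAGGAAGT, a PU.1 sequence, in Ctsc, and CACGTG, the E-box, in Ctsd, with either strand's letters counted. Other matches are left in small letters. Among them, the Ctsd stretch also holds GGGCGG, at −204 to −199 and, on the other strand, −117 to −112 from the start.
Cst3 (chr2:148875513-148875762, minus strand): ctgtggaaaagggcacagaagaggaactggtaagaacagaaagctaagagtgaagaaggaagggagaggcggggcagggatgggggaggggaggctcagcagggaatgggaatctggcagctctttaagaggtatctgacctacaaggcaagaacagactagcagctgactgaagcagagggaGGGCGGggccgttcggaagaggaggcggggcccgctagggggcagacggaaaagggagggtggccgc
Ctsc (chr7:88277835-88278023, plus strand): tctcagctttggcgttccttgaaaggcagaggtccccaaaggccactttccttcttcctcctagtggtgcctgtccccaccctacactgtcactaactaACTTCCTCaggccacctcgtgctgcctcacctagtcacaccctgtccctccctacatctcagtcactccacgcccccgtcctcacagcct
Ctsd (chr7:142387828-142388077, minus strand): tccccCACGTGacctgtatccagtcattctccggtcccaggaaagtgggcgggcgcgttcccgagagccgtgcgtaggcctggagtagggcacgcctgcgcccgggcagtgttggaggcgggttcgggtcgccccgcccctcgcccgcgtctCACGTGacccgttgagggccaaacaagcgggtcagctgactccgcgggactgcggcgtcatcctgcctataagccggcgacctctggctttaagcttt
Ctss (chr3:95526536-95526785, plus strand): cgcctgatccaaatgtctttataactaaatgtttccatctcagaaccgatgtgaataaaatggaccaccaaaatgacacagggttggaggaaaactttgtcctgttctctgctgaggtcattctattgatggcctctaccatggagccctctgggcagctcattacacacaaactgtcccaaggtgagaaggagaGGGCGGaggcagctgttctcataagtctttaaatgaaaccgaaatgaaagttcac

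The windows searched reached from 250 bases before to 50 bases after a start, on both strands. CACGTG was found in 7.15% of the 32851 windows of the table and in 3 of the 8 windows of these genes, those of Ctsd, Ctsl and the second start of Ctsa. TCACGTGA, the core of the CLEAR element, which contains CACGTG, was in 0.974% of all windows and in those of Ctsd and Ctsa. In Ctsd the 2 E-boxes lay at −245 to −240 and −98 to −93 from the start, and the summits of the 5 Ctsd start peaks lay between them, at −230 to −112. The window of the second Ctsa start also held 2 E-boxes, at −12 to −7 and 5 to 10 from that start. The E-boxes of Ctsa and Ctsl fall inside the RefSeq gene bodies. Stretches of 30 bases only are shown, CACGTG in capitals, and that of Ctsa holds the first of its 2.
Ctsa (chr2:164833743-164833772, plus strand): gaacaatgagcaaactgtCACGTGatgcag
Ctsl (chr13:64370739-64370768, minus strand): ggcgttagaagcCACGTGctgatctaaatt

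GGGCGG was in 35.7% of all windows and in 5 of the 8 windows here, those of Cst3, Ctsc, Ctsd, Ctss and Ctsz. GAGGAAGT, bound by the myeloid factor PU.1, was in 3.20% of all windows and in those of Ctsc (−151 to −144) and Ctss (−2 to 5). TGANTCA, the AP-1 site, was in 7.81% of windows and in none of the 8. ACGTG, the hypoxia response element core, which every CACGTG contains, was in 19.6% of windows and in those of Ctsa, Ctsd and Ctsl, and its variant GCGTG was in 32.4% and in those of Ctsa, Ctsc, Ctsd and Ctsl. CCAAT was in 37.4% of windows and here only in that of Ctsz. The GC content of the 250 bases before the start was 67.2% for Ctsd, with 27 CpG pairs, and 44.8% for Ctss, with 4, beside a median of 52.4% over the table. These are matches of letters, not measured binding.

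Of the 22 regions, 3 had a peak in all 8 libraries (13.6%, beside 15.6% of all regions): the start regions of Cst3 and Ctsc and a region upstream of Ctsa. At the other end, 3 (13.6%) had a peak in 1 library only, beside 26.7% of all regions. Monoculture normoxia had peaks in 8 and 7 of the 22 regions (7.5 ± 0.707, SD, n = 2), monoculture hypoxia in 15 and 16 (15.5 ± 0.707), co-culture normoxia in 18 and 14 (16 ± 2.83) and co-culture hypoxia in 16 and 11 (13.5 ± 3.54). Thus the monoculture normoxia libraries were below all 6 others, and the other 3 groups overlapped. Of all regions, 30.8% and 23.1% had a peak in monoculture normoxia, again below the rest, at 57.3% and 62.3% in monoculture hypoxia, 51.7% and 51.5% in co-culture normoxia, and 70.7% and 51.5% in co-culture hypoxia. When each list was cut to its 9910 strongest peaks, the length of the shortest list, the counts were 6 and 7, 7 and 6, 6 and 8, and 5 and 7 in the same order, and all groups overlapped.

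**Figure D1:**
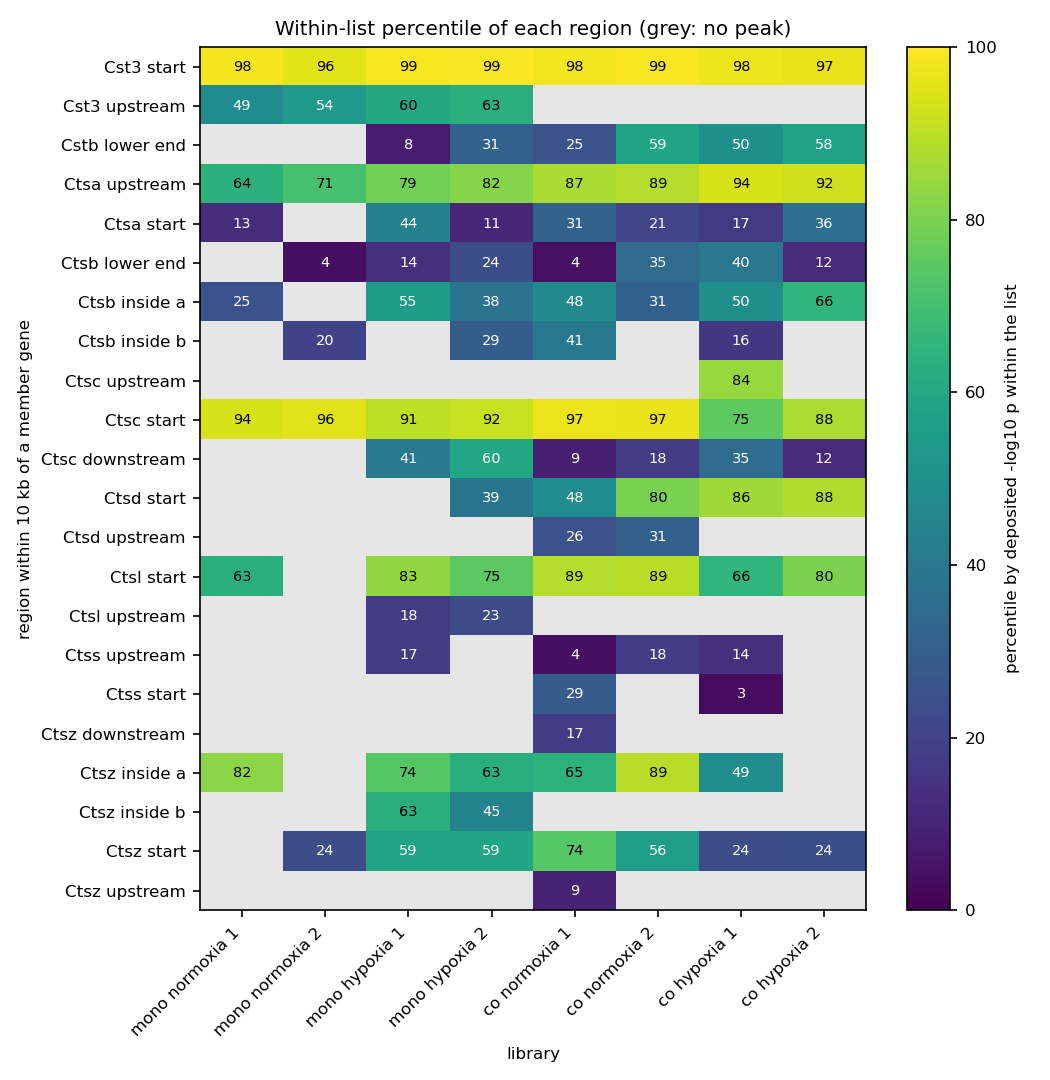
Within-list percentile by deposited −log10 p (colour and number, 0 to 100) of each of the 22 regions (rows) in each of the 8 libraries (columns), with grey where there was no peak. The Cst3 start row lies at 95.9 to 99.3 in all libraries, and the Cst3 upstream row is filled in the 4 monoculture libraries only.

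Cst3, the cystatin C gene (chr2:148871722-148875512, minus strand), had the start peak of the highest −log10 p percentile and the most fragments among the 9 genes in each library, with a region at chr2:148875227-148876196. Ranked by the deposited −log10 p among the peaks of its own list, it stood at percentiles 98.4 and 95.9 in monoculture normoxia, 99.1 and 99.3 in monoculture hypoxia, 98.3 and 99.1 in co-culture normoxia, and 97.5 and 96.7 in co-culture hypoxia. Its median of 98.4 was above 92.4% of the 3017 protein-coding genes that had a start peak in all 8 libraries. Summits held 99 and 91, 175 and 219, 141 and 207, and 146 and 135 fragments, and they lay within a narrow stretch at −123 to −92 bases from the start. Group mean percentiles were 97.2 ± 1.77, 99.2 ± 0.143, 98.7 ± 0.527 and 97.1 ± 0.548 (SD, n = 2 each). In co-culture the hypoxic libraries were both below the normoxic ones. In monoculture the hypoxic libraries were both above. By the authors' fold over local background the start peak ranked lower in every list, at percentiles 41.5 to 90.6. It then stood below the Ctsc start in monoculture normoxia 2 (41.5 and 79.5) and co-culture normoxia 1 (75.5 and 86.4), and in the latter also below the Ctsl start (78.7). On that scale its group means were 60.8, 80.7, 82.4 and 89.5, so that hypoxic co-culture was above normoxic co-culture in the mean, with the libraries overlapping.

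A second Cst3 region, chr2:148877204-148877843, lay 1692 to 2331 bases upstream of the gene, 1007 bases beyond the start region, with no other RefSeq gene within 10 kb of Cst3. It had a peak in all 4 monoculture libraries and in none of the 4 co-culture libraries. Its summits held 40 and 51 fragments in the normoxic monocultures, at percentiles 48.7 and 53.7, and 67 and 86 fragments in the hypoxic monocultures, at percentiles 60.3 and 63.4. Summits lay at the same place in the 4 libraries, at −2088 to −2070 bases from the start. Of all 40784 regions, 11 (0.027%) had peaks in every monoculture library and no co-culture library, while 1.98% had the reverse and none of the 22 did.

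The upstream summit held 0.404 and 0.560 of the start summit's fragments in the normoxic monocultures and 0.383 and 0.393 in the hypoxic ones. In each co-culture library, a peak of the list's lowest −log10 p at the start region's background would have taken 33 and 37 fragments (normoxia) and 27 and 25 (hypoxia). Those numbers are 0.234, 0.179, 0.185 and 0.185 of the start summits in those libraries, below all 4 ratios measured in monoculture. Setting them side by side takes the ratio to be alike in both cultures, which was not tested. The region was also known by its missing peaks beforehand, so the values are a description only. The limits use the background at the start because a list gives none where there is no peak. In the 4 monoculture libraries the backgrounds at the start and upstream regions were close, for example 10.3 and 9.98 fragments in monoculture normoxia 1, or 23.7 and 23.1 in library 2 of monoculture hypoxia. The upstream region's own background in monoculture had a median of 14.0 times the list's commonest level. At that multiple of each co-culture list's level, 32 and 37 fragments would have been needed in co-culture normoxia, and 38 and 33 in co-culture hypoxia. Those are 0.227, 0.179, 0.260 and 0.244 of the start summits and also below the 4 measured ratios.

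**Figure D2:**
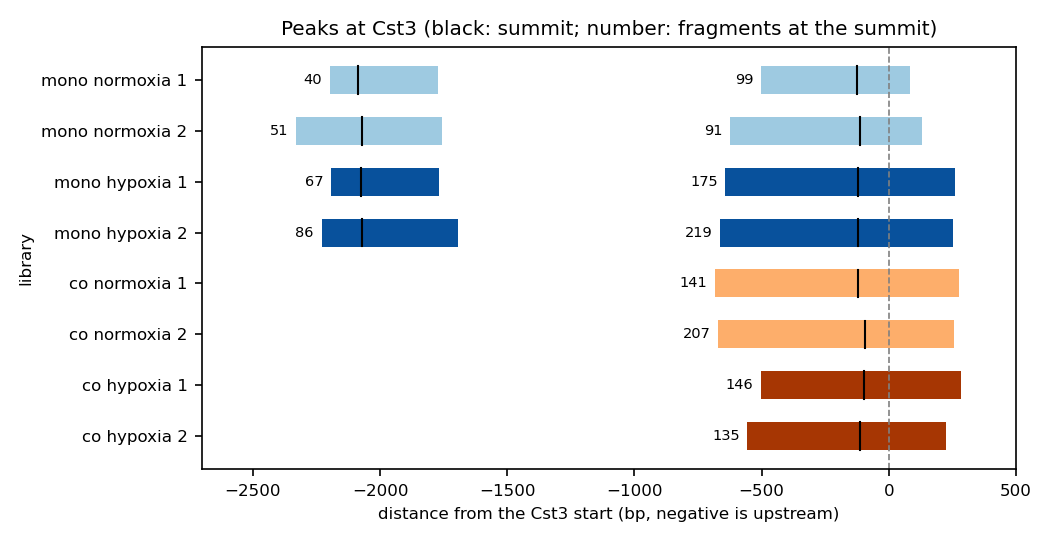
Peaks at Cst3 in the 8 libraries (rows), by distance from the Cst3 start in bp, negative upstream; bars span each peak, black lines mark summits and numbers are summit fragments. The start peak is present in every library, and the peak about 2 kb upstream has 40, 51, 67 and 86 fragments in monoculture and is missing in co-culture.

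**Figure D3:**
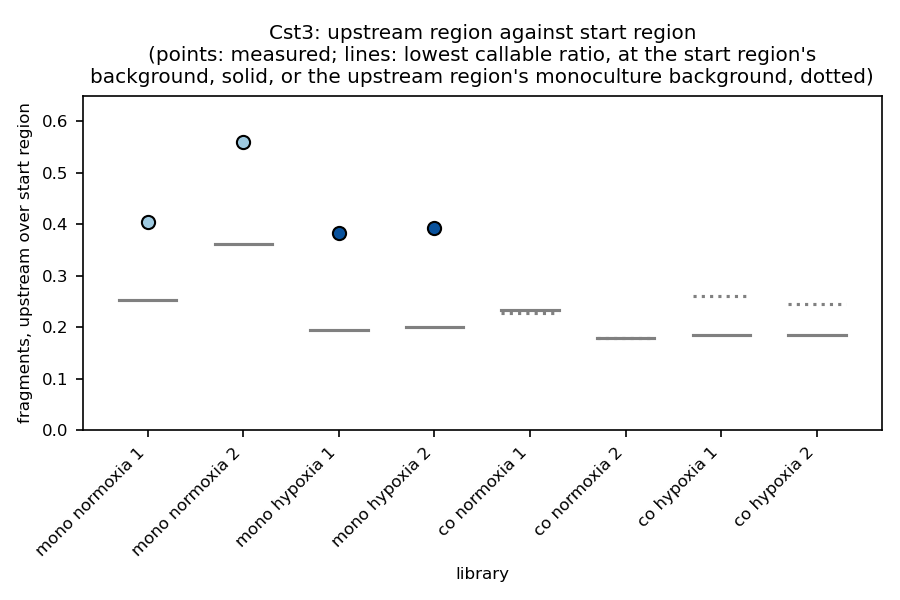
Summit fragments of the Cst3 upstream region over those of the start region (points), per library, with the lowest callable ratio at the start region's background (solid grey). Where there was no peak, dotted grey gives that ratio at the upstream region's median monoculture background, scaled to the list's commonest level. Measured ratios of 0.383 to 0.560 in monoculture lie above the co-culture limits of 0.179 to 0.234 (solid) and 0.179 to 0.260 (dotted).

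The upstream region was a weak peak on other scales. Cut to 9910 peaks per list it was still present in the 4 monoculture libraries, but at percentiles 30.9 and 53.7 in normoxia and 2.41 and 2.69 in hypoxia, close to the bottom of those lists. Ranked by the authors' fold over local background it stood at 1.48 and 0.76 in the normoxic and 5.35 and 2.35 in the hypoxic monocultures. The glial marker list, with peaks at 0 to 2 of 12 genes in monoculture and 3 to 7 in co-culture, separated the same libraries by gene count. By summed fragments the cultures overlapped, with monoculture hypoxia 2 at 69.4 and co-culture normoxia 2 at 65.1. The part of these markers in the missing peak was not tested. Of the other 10 regions with the same presence pattern, the 3 whose percentiles over the 4 monoculture libraries were nearest lay 34424 bases from Isoc1 (mean absolute difference 4.44 points), 39208 bases from Gm17885 (8.87) and 6890 bases from Gm5565 (10.9).

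Cstb, the gene of the cytosolic inhibitor cystatin B (chr10:78425670-78427622), had 1 region, chr10:78425513-78426648, at its lower-coordinate end. It had no peak in monoculture normoxia, where 9 and 10 fragments would have been needed at the region's median background, scaled to each list's commonest level. Monoculture hypoxia had 15 and 22 fragments (percentiles 8.03 and 31.0), co-culture normoxia 18 and 32 (25.5 and 59.1), and co-culture hypoxia 31 and 31 (50.1 and 57.9). The co-culture hypoxia percentiles were above those of monoculture hypoxia without overlap and overlapped those of co-culture normoxia. In lists of 9910 peaks it remained in 2 libraries, co-culture normoxia 2 and co-culture hypoxia 2.

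Ctsb encodes cathepsin B, an endo- and carboxypeptidase (chr14:63122462-63145923), and had 3 regions. The region at its lower-coordinate end, chr14:63122273-63122951, was weak: it was missing in monoculture normoxia 1, had 9 fragments in monoculture normoxia 2, 13 and 20 in monoculture hypoxia, 10 and 22 in co-culture normoxia, and 29 and 14 in co-culture hypoxia. Percentiles ran from 3.63 to 40.2, lowest in monoculture normoxia 2, and the other 3 groups overlapped. The region chr14:63128743-63129368, inside the gene, was missing in monoculture normoxia 2 and had 16 fragments in monoculture normoxia 1, 40 and 40 in monoculture hypoxia, 34 and 29 in co-culture normoxia, and 47 and 53 in co-culture hypoxia. Here co-culture hypoxia (percentiles 49.9 and 65.9) was above co-culture normoxia (47.8 and 31.0) by a margin smaller than the spread of either group. The third, chr14:63131949-63132638, had a peak in 1 library of each group, with 22 to 38 fragments.

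Ctsl encodes cathepsin L, an endopeptidase (chr13:64361890-64370772, minus strand). Its start region, chr13:64369963-64370875, had 26 fragments in monoculture normoxia 1 and no peak in monoculture normoxia 2, where 15 would have been needed. Monoculture hypoxia had 60 and 56 fragments (percentiles 83.3 and 74.8), co-culture normoxia 59 and 75 (88.8 and 89.4), and co-culture hypoxia 46 and 55 (65.8 and 80.1). Both co-culture hypoxia libraries were below both co-culture normoxia libraries in fragments and in percentile. Summits lay 72 to 135 bases inside the start site of the promoter table, position 64370520, which is itself inside the gene body. A second region, chr13:64373657-64374017, was 2885 bases upstream of the gene body and had a peak in monoculture hypoxia only, with 27 and 32 fragments at percentiles 17.6 and 23.2. The other 6 libraries would have needed 13 to 19.

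Ctss encodes cathepsin S, which trims the invariant chain during MHC class II antigen presentation and is a marker of microglia (chr3:95526786-95556405, plus strand). Its start region, chr3:95526492-95527248, had a peak in 2 libraries, co-culture normoxia 1 with 20 fragments (percentile 28.9) and co-culture hypoxia 1 with 16 (3.45). The other 6 libraries would have needed 10 to 13. In those 2 libraries the summits lay 25 and 26 bases before the start. A start peak in exactly 2 libraries was found for 3.09% of 17492 protein-coding genes, and in no library for 51.7%. The region 5056 bases upstream, chr3:95521234-95521730, had 12 and 16 fragments in co-culture normoxia, 18 in monoculture hypoxia 1 and 24 in co-culture hypoxia 1, at percentiles 4.03 to 18.2, and no peak in the other 4 libraries. Neither region was in any list of 9910 peaks.

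Ctsz encodes cathepsin Z, a carboxypeptidase (chr2:174427494-174439039, minus strand), and had 5 regions, more than any other member. The start region, chr2:174438872-174440228, was missing in monoculture normoxia 1 and had 54 fragments in monoculture normoxia 2, 80 and 94 in monoculture hypoxia, 103 and 110 in co-culture normoxia, and 52 and 45 in co-culture hypoxia. Its percentiles of 23.5 and 24.2 in co-culture hypoxia were below the 73.7 and 55.6 of co-culture normoxia and the 58.6 and 58.9 of the hypoxic monocultures, and lay on either side of the 23.7 of monoculture normoxia 2. By fold over local background the same peaks stood at percentiles 0.04 to 1.28, and the local background there was 12.02 to 30.1 times the list's commonest level. A region inside the gene, chr2:174436137-174436657, had 66 fragments in monoculture normoxia 1, 88 and 91 in monoculture hypoxia, 90 and 158 in co-culture normoxia, 62 in library 1 of co-culture hypoxia, and no peak in the other 2. Its summits lay 2599 to 2604 bases inside the start in all 6. Another inside region, chr2:174437423-174437972, had a peak in monoculture hypoxia only (83 and 84 fragments, percentiles 62.6 and 44.5). The remaining 2, one of them inside Nelfcd, had a peak in co-culture normoxia 1 only.

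Ctsc encodes cathepsin C, the dipeptidyl peptidase that activates granule serine proteases (chr7:88278024-88315861, plus strand). Its start region, chr7:88276993-88278496, had 57 and 67 fragments in monoculture normoxia, 85 and 97 in monoculture hypoxia, 105 and 132 in co-culture normoxia, and 55 and 73 in co-culture hypoxia. Percentiles were 94.1 and 95.5, 90.5 and 91.7, 97.2 and 96.5, and 75.4 and 87.7 in the same order, with group means of 94.8 ± 1.02, 91.1 ± 0.822, 96.8 ± 0.463 and 81.5 ± 8.67 (SD, n = 2 each). Every hypoxic library was below every normoxic one by this rank, and co-culture hypoxia was the lowest group. Ranked by the authors' fold, the hypoxic libraries were also all below the normoxic ones, but monoculture hypoxia was the lowest group (56.3 and 53.9, beside 54.6 and 77.3 in co-culture hypoxia). In all 8 lists together 2.71% of 6375 regions were lower in hypoxia in this way, and 1 of 3 member regions was. In lists of 9910 peaks its percentiles were 92.0 and 95.5, 76.8 and 78.0, 93.8 and 92.3, and 26.3 and 73.0, so the hypoxic libraries were again all below the normoxic ones and co-culture hypoxia 1 stood apart from its replicate. Its median of 92.9 was above 72.9% of the 3017 genes with a start peak in all libraries.

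A region 3205 bases downstream of Ctsc, chr7:88319066-88320095, was missing in monoculture normoxia and had 25 and 34 fragments in monoculture hypoxia, 14 and 15 in co-culture normoxia, and 21 and 12 in co-culture hypoxia. Monoculture hypoxia (percentiles 41.1 and 59.7) was above both co-culture groups (8.95 to 35.0). The region chr7:88271538-88271843, 6181 bases upstream, had a peak in co-culture hypoxia 1 alone, with 46 fragments at percentile 84.4. The other 7 libraries, its replicate included, would have needed 7 to 10 fragments there.

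Ctsd encodes cathepsin D, the main aspartic protease of lysosomes, which cystatins do not block (chr7:142375910-142387827, minus strand). Its start region, chr7:142387531-142388281, was missing in both monoculture normoxia libraries and in monoculture hypoxia 1, where 14, 16 and 20 fragments would have been needed. Monoculture hypoxia 2 had 34 fragments (percentile 39.0), co-culture normoxia 35 and 59 (48.5 and 79.8), and co-culture hypoxia 65 and 72 (85.9 and 88.2). All 4 co-culture libraries were above the 1 monoculture library with a peak, though 35 and 34 fragments nearly met, and the other 3 monoculture libraries have no fragment value. In lists of 9910 peaks the region was present in co-culture normoxia 2 and both co-culture hypoxia libraries, at percentiles 55.4, 57.8 and 74.3, and in no monoculture library. The E-box sequences of its promoter are those printed above. A region 5210 bases upstream, chr7:142393037-142393457, had a peak in co-culture normoxia only (30 and 31 fragments, percentiles 25.7 and 30.6).

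Ctsa encodes cathepsin A, a serine carboxypeptidase that protects lysosomal beta-galactosidase and neuraminidase (chr2:164832872-164841032, plus strand). Its start region, chr2:164832814-164833904, spans both RefSeq starts and overlaps Neurl2, so its peaks cannot be given to 1 gene. It was missing in monoculture normoxia 2 and had 11 fragments in monoculture normoxia 1, 26 and 17 in monoculture hypoxia, 22 and 20 in co-culture normoxia, and 22 and 26 in co-culture hypoxia. Its percentiles were 12.9 in monoculture normoxia 1, 44.0 and 10.8 in monoculture hypoxia, 31.1 and 21.0 in co-culture normoxia, and 17.1 and 36.5 in co-culture hypoxia. Monoculture normoxia 1 was the lowest in fragments, which are not scaled for depth, but lay within the range of monoculture hypoxia by percentile. The other 3 groups overlapped on both scales, and the region was in no list of 9910 peaks. A region 9350 bases upstream, inside Zswim1, chr2:164822811-164823522, had 19 and 23, 39 and 43, 45 and 60, and 83 and 78 fragments in the 4 groups, taken as before. Its percentiles were 64.1 and 71.0, 78.9 and 81.9, 87.1 and 88.8, and 94.1 and 92.5, with no overlap between any of the 4 groups. All 4 co-culture libraries were above all 4 monoculture libraries, as were 10.8% of the 6375 regions with a peak in all 8 libraries. In lists of 9910 peaks the monoculture percentiles were 51.7, 71.0, 48.1 and 52.0 and the co-culture ones 71.7, 75.4, 82.4 and 83.6, still without overlap between cultures. Ranked by fold, the cultures overlapped, with monoculture hypoxia 2 at 94.5 and co-culture normoxia 1 at 93.9.

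**Figure D4:**
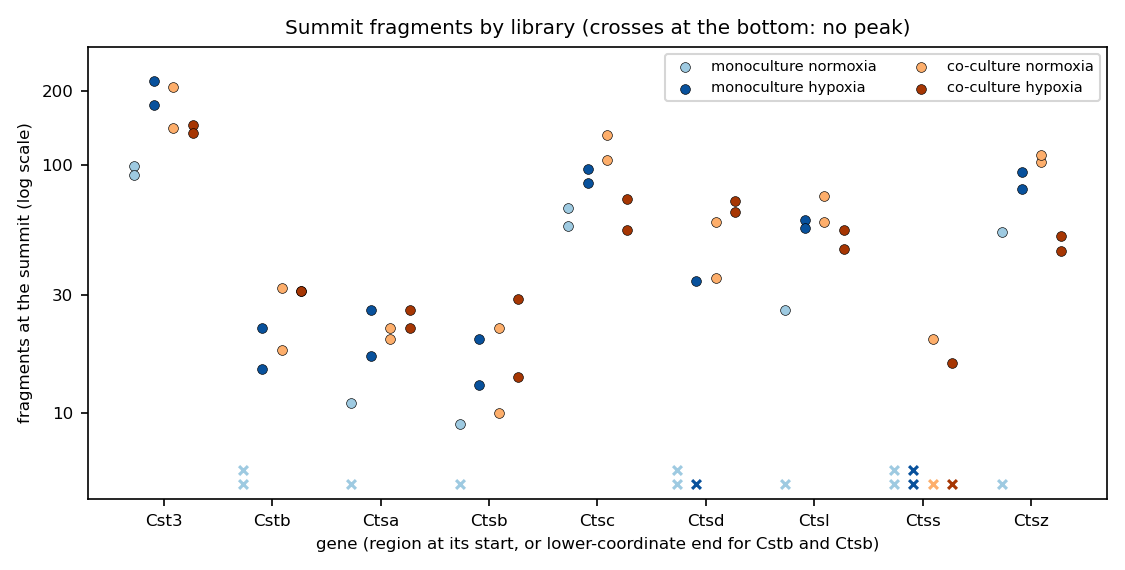
Fragments at the summit (log scale) of the region at each gene's start, or lower-coordinate end for Cstb and Ctsb, with 1 point per library, coloured by group, and crosses where there was no peak. Cst3 has the most fragments in every library (91 to 219), and crosses are commonest in monoculture normoxia and at Ctss.

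Over all 22 regions, 4 were gained with hypoxia in monoculture (a peak in both hypoxic and neither normoxic library), 18.2% beside 17.7% of all regions, and 0 were lost beside 0.179%. The 4 were Cstb, the region downstream of Ctsc, that upstream of Ctsl, and the second region inside Ctsz. With hypoxia in co-culture 0 were gained (6.09% of all regions) and 1, upstream of Ctsd, was lost (2.05%). With co-culture in normoxia 5 were gained (22.7% beside 12.5%), namely Cstb, downstream of Ctsc, upstream of Ctss and both Ctsd regions, and 1, upstream of Cst3, was lost (0.181%). With co-culture in hypoxia 0 were gained (5.83%) and 3 were lost (13.6% beside 3.76%), upstream of Cst3, upstream of Ctsl and inside Ctsz. Over all hypoxic against all normoxic libraries 0 were gained (2.08%) and 0 lost (0.0196%). These comparisons share libraries, and since presence chose the genes nothing is read from the shares.

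In lists of 9910 peaks, where 14 of the 22 regions remained, no region was gained with hypoxia in monoculture (7.48% of 19558 regions) or with co-culture in normoxia (4.93%). With co-culture in hypoxia 1 was gained, the Ctsd start (7.48%), and 2 were lost, upstream of Cst3 and the first region inside Ctsz (7.1%). With hypoxia in co-culture 2 were lost, the Ctsz start and the first region inside Ctsz (5.79%). The Cst3 upstream region was lost with co-culture in normoxia (2.98%) and over all co-culture libraries (0.506%). None was lost with hypoxia in monoculture (5.2%), gained with hypoxia in co-culture (5.51%), gained over all co-culture libraries (1.03%), or gained (1.08%) or lost (0.91%) over all hypoxic libraries.

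Among regions with a peak in all 4 co-culture libraries, 11 were near these genes. The percentile was lower in both hypoxic than in both normoxic libraries at 4 of them, the start regions of Cst3, Ctsc, Ctsl and Ctsz, beside 23.8% of 13617 regions, and higher at 3, upstream of Ctsa, inside Ctsb and at the Ctsd start, beside 30.2%. The start regions of Cst3, Ctsc, Ctsl and Ctsz were thus lower and that of Ctsd higher in hypoxic co-culture by −log10 p, and the groups overlapped at the Ctsa start and the lower-coordinate ends of Cstb and Ctsb. Ranked by fold, the Ctsc and Ctsl starts were still lower and the Ctsd start still higher without overlap. The Cst3 start, the Ctsz start and the region inside Ctsb overlapped between the oxygen levels on that scale, and the Cst3 mean was higher in hypoxia (82.4 and 89.5). Set against monoculture hypoxia, co-culture hypoxia was lower at 4 of 10 regions, the Cst3, Ctsc and Ctsz starts and downstream of Ctsc (28.8% of 14386), and higher at 2, Cstb and upstream of Ctsa (30.6%). By fold the Cst3 start was instead higher in co-culture hypoxia without overlap (88.5 and 90.6, beside 86.5 and 74.9 in monoculture hypoxia), and the Ctsc start and the region downstream of Ctsc overlapped. The Ctsz start stayed lower and the other 2 stayed higher on that scale. Only 4 regions could be compared for oxygen in monoculture: both Cst3 regions and the region upstream of Ctsa were higher in hypoxia (53.1% of 7002) and the Ctsc start was lower (7.67%). The normoxic lists there hold 9910 and 13333 peaks and the hypoxic ones 24370 and 26339, and none of the 3 higher ranks held in lists of 9910 peaks. The Cst3 upstream region was then lower in hypoxia without overlap, as given above, and the groups overlapped at the Cst3 start and upstream of Ctsa, while the Ctsc start was still lower. Of 3 comparable for culture in normoxia, the Ctsc start and the region upstream of Ctsa were higher in co-culture (53.6% of 6899). In lists of 9910 peaks the region upstream of Ctsa was still higher and the Ctsc start overlapped.

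The local background, the number of fragments the caller expected at a summit from its surroundings, was itself high at some of these genes. At the Cst3 start it was 13.6 and 15.6 times the list's commonest level in monoculture normoxia, 11.5 and 16.8 in monoculture hypoxia, 14.7 and 14.0 in co-culture normoxia, and 8.33 and 9.31 in co-culture hypoxia. Co-culture hypoxia was below the other 6 libraries. At the Ctsc start it was 4.39 and 5.76 in co-culture hypoxia and 7.37 to 9.93 elsewhere, and at the Ctsz start 12.02 and 12.1 beside 16.0 to 30.1. At the Ctsl start it was 4.0 and 4.42 in co-culture hypoxia, 4.09 in monoculture normoxia 1, and 4.83 to 5.47 in the other 4. In co-culture, 5 of the 11 regions were lower in hypoxia by this measure, the 4 start regions and the region downstream of Ctsc, beside 30.4% of 13563 regions, and 2 were higher, upstream of Ctsa and inside Ctsb, beside 35.4%. Against monoculture hypoxia, co-culture hypoxia was lower at the same 5 regions of 10 (26.1% of 14331) and higher at 4, Cstb, both Ctsa regions and inside Ctsb (41.8%).

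**Figure D5:**
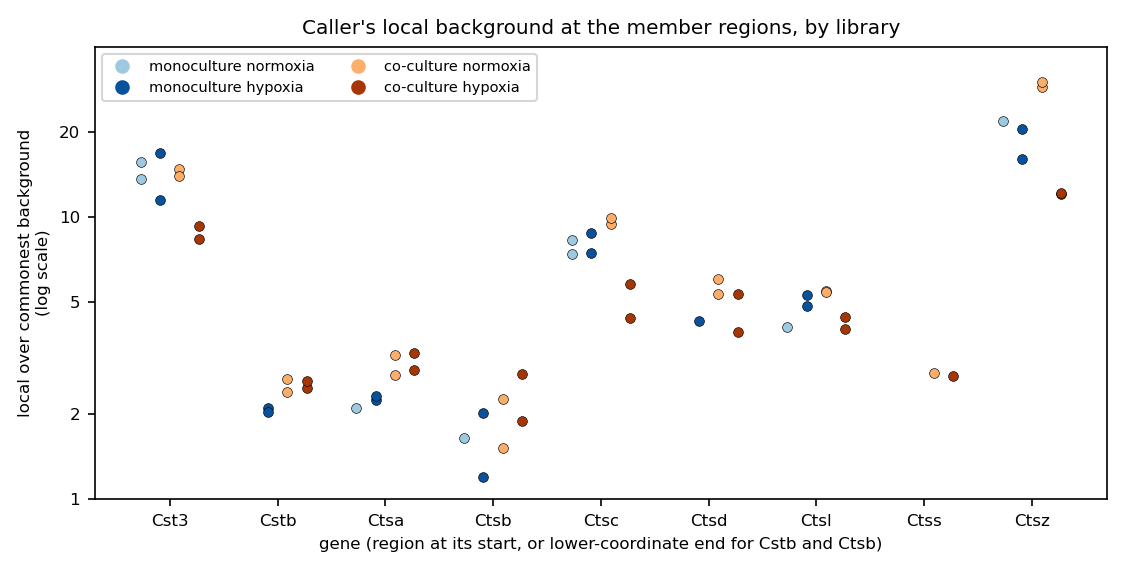
Local background at each gene's start region, or lower-coordinate end for Cstb and Ctsb, in multiples of the list's commonest background (log scale), with 1 point per library where a peak was called. In co-culture hypoxia Cst3 (8.33 and 9.31), Ctsc (4.39 and 5.76) and Ctsz (12.02 and 12.1) lie below all other libraries.

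Over a wider span the pattern of high background was not shared by all genes. Peaks within 1 Mb of Ctsz had a median local background of 4.81 times the commonest level (3.73 to 7.73 over libraries), of Ctsl 3.98 (3.45 to 4.84) and of Cst3 3.70 (3.10 to 5.19). Those near Cstb, Ctsb and Ctsc had 1.69, 1.90 and 2.18, beside medians of 2.09 to 2.67 over all peaks of a library.

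Peaks at the start were found for 25.8% and 21.4% of 17492 protein-coding genes in monoculture normoxia, 35.5% and 35.4% in monoculture hypoxia, 38.6% and 41.3% in co-culture normoxia, and 43.1% and 41.0% in co-culture hypoxia. Of the 7 members in the promoter table, 4 and 3, 5 and 6, 7 and 6, and 7 and 6 had one. Cst3 and Ctsc were among the 17.2% of genes with a start peak in all 8 libraries, Ctsa, Ctsl and Ctsz among the 8.11% with one in 7, and Ctsd among the 3.93% with one in 5.

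Other genes of the pathway were taken from lists of 56 genes, of which 51 had a region within 10 kb, 154 regions in all. With hypoxia in monoculture 39 of them were gained (25.3%, beside 17.7% of all regions) and 1 was lost. By group, these were 5 of 14 regions of other cathepsins (Ctse, Ctsh, Ctsk and Ctso), 1 of 9 of other inhibitors (Serpinb6a), 15 of 69 of lysosomal enzymes and membrane proteins, 4 of 20 of the transcription factor genes (Tfeb and Mitf), and 14 of 42 of the vacuolar ATPase, the pump that acidifies lysosomes. With co-culture in normoxia 28 were gained (18.2% beside 12.5%) and 0 lost. With hypoxia in co-culture 5 were gained and 5 lost (3.25% each, beside 6.09% and 2.05% of all regions). The counts with co-culture in hypoxia were also 5 and 5 (3.25% each, beside 5.83% and 3.76%). No region of these lists was lost in all co-culture libraries, as the Cst3 region was, beside 0.027% of all regions. With a share this small, 0 of 154 does not set the Cst3 region apart. Near Grn, the progranulin gene, 1 region was present in all 4 hypoxic and no normoxic library (0.649%, beside 2.08% of all regions). Of the other cystatin genes Cst7, the gene of cystatin F, had a peak in all 8 libraries and Cst6 in 4, while Stfa1, Stfa2, Stfa3 and Csta1 had no region.

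The limit of 10 kb set which regions counted. The farthest region inside it was that upstream of Ctsa, at 9350 bases. Just outside lay a region 10203 bases from Ctsd (2 libraries, percentiles 35.7 and 37.2), 1 at 11143 bases from Ctsc (7 libraries, 15.4 to 68.2) and 1 at 11215 bases from Ctsz (8 libraries, 91.5 to 98.9).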

How the data were processed

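ATAC-seq peak lists of 8 libraries were used, 1 list per library. Per the submitters' processing notes, the tools included Trimmomatic 0.36, HISAT2 2.1.0, Picard, SAMtools, deepTools and MACS2, with mm10 as the build. Their settings, the shift for Tn5 insertion and the duplicate filter are not given in the sources used here. For each peak the deposited lists give a fold (a ratio of summit to local background), −log10 values of p and q, a score and the offset of the summit. The deposited score repeats the −log10 q, times 10 and without decimals, and was not used further. The authors called peaks per library and not on pooled replicates, so all of these are a list's own values.

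Overlapping peaks (1 bp or more) of all lists were merged into regions, and regions within 10 kb of a gene body of the RefSeq GRCm38.p6 table were taken. A region was gained where all libraries of the first group and none of the second had a peak, and lost in the reverse case. Percentiles are ranks by −log10 p within a list. Lists differ in length, so ranks in the 9910 strongest peaks of each list stand beside them. Summit fragments and local background were solved from the deposited fold and −log10 p, taking the fold as the ratio of fragments to background after adding 1 to each and the p as a Poisson tail. The deposited −log10 p came back to within 0.001 for 99.98% to 100% of peaks. No read totals were used here, and fragments without molecular identifiers are not independent molecules. The fragments needed for a region without a peak use its local background as a multiple of the list's commonest level. The median multiple over the libraries with a peak was applied to the commonest level of the list without one.

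All 9 genes and 22 regions are accounted for, with values in every library for the region at each start, each region gained or lost, and the strongest region of each gene. Genes, pathway and marker lists were chosen with earlier results of these data known. No test was run, since presence and rank chose the genes. Scripts were tested on simulated data, whose local backgrounds lay below those of all Cst3 and Ctsz peaks given here. Python 3.11.15, numpy 2.4.6, pandas 2.3.3, scipy 1.17.1 and matplotlib 3.10.9 were used.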

Additional observations from a re-analysis of the deposited data

Results flagged for a closer look

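The Cst3 start region differed in opposite directions with hypoxia in the 2 cultures when ranked by −log10 p. The genes were chosen on these ranks, and the lists differ in length, so the differences are given as a description only. Both hypoxic libraries were above both normoxic ones in monoculture, by a mean of 2.04 percentile points. They were below them in co-culture, where the mean difference was −1.57, so the 2 differences were 3.61 points apart. The difference was not tested. In lists of equal number the co-culture hypoxia percentiles of 92.5 and 92.9 were still below those of co-culture normoxia, 96.3 and 97.9, while the monoculture groups overlapped. Ranked by fold, the mean was higher in hypoxia in both cultures (60.8 and 80.7 in monoculture, 82.4 and 89.5 in co-culture, normoxia first), and the libraries overlapped in each, so the opposite directions were not found on that scale.

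The Ctsc start region differed in opposite directions with co-culture at the 2 oxygen levels when ranked by −log10 p. Here too the ranks chose the genes and the lists differ in length, so the differences are a description only. Both co-culture libraries were above both monoculture ones in normoxia, by a mean of 2.03 points. They were below them in hypoxia, where the mean difference was −9.61, so the 2 differences were 11.6 points apart. The difference was not tested. Within co-culture hypoxia the replicates stood at 75.4 and 87.7. In lists of equal number the normoxic cultures overlapped, with monoculture at 92.0 and 95.5 and co-culture at 93.8 and 92.3. Ranked by fold, the mean was higher in co-culture at both oxygen levels (79.7 and 83.1 in normoxia, 55.1 and 65.9 in hypoxia, monoculture first), so the opposite directions were not found there either.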

How the results depend on the processing

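No paired analysis was possible because the results are counts and ranks from no test. Mean member regions with a peak were 6.5, 6.5, 7 and 6 (monoculture normoxia, monoculture hypoxia, co-culture normoxia, co-culture hypoxia) in equal-number lists, 6.5 in monoculture normoxia at a −log10 q of at least 5, and 6 and 14 in the monoculture groups where a peak had to cover 50% of its region. Equal-number lists gave 0 gained with hypoxia in monoculture, 2 lost with hypoxia in co-culture, 0 gained with co-culture in normoxia and 1 in hypoxia. Within 2 kb (15 regions) the first 3 groups had 6.5, 12 and 11.5 regions, with 2 gained with hypoxia in monoculture, 0 lost with hypoxia in co-culture and 2 gained with co-culture in normoxia. Within 25 kb (36 regions) the groups had 12, 26.5, 26.5 and 21.5, with 7 and 9 gained in the same 2 comparisons. Windows of 250 bp around summits left 15 of the 16 counts as they were, and gave 3 rather than 4 gained with hypoxia in monoculture. Leaving out 1 library at a time, the groups had 7 to 8, 15 to 16, 14 to 18 and 11 to 16 regions. Hypoxia in monoculture gained 5 to 8 and lost 0, and in co-culture gained 0 to 1 and lost 1 to 3. Co-culture in normoxia gained 5 to 9 and lost 1, and in hypoxia gained 0 to 2 and lost 3 to 4. All hypoxic libraries gained 0 and lost 0, and all co-culture libraries gained 0 to 1 and lost 1, the Cst3 upstream region. Leaving out a library can only relax the rule for gained and lost. These counts therefore could not fall, and each region already called had to stay, the Cst3 upstream region included. Without monoculture normoxia replicate 1 the gains were 8 with hypoxia and 9 with co-culture. Without co-culture normoxia replicate 2 co-culture gained 8 and hypoxia lost 3, as it did without co-culture hypoxia replicate 1. Ranking by fold moved 31 of 43 group percentiles and equal-number lists 18 of 20, by more than the spread between replicates, and summit windows moved 0 of 43. A missing peak means only that a region did not pass the threshold of that list. Depth, by background level, was lowest in monoculture normoxia (0.758 and 1.03 fragments per position, beside 1.07 to 1.45 in the other 6 libraries), and its part in the counts was not tested.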
